A study of Mus musculus with 20 samples.

Results

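The genes described here are 9 members of the PPAR alpha and fatty acid use group in mouse corneal epithelium, out of 24552 genes in the deposited table. They were listed by symbol: *Lncppara*, *Ppara*, *Acsm1*, *Cpt1a*, *Plin2*, *Pdk4*, *Angptl4*, *Fabp5* and *Acadm*. *Lncppara* and *Acsm1* were chosen by their measured values, namely their rise with age in these same libraries, so their values between ages are given as a description with no test. Of the 9 members, 8 passed the filter on low values (a mean normalized count of at least 10 over the 20 libraries), and 6 of those 8 were open to a test between ages.

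PPAR alpha is a nuclear receptor that is switched on by fatty acids and their derivatives and binds DNA as a pair with a retinoid X receptor. Its known target genes serve the uptake, binding, activation and burning of fatty acids, and it is best known from liver, heart and brown fat, tissues that burn much fat. In the cornea it has been linked to the upkeep of the epithelium and its nerves.

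The samples were corneal epithelium of naïve wild-type female C57BL/6J mice, scraped from the eye, with 1 mouse per library and no treatment, transgene or deletion in any group. There were 5 libraries at each of 4 ages: 2-3 months (young), 12-13 months (12-month), 18-19 months (18-month) and 24-25 months (24-month). The 15 libraries of the 3 older ages together are called aged. Libraries were primed on the poly(A) tail and read from the 3′ end, so a count follows the number of transcripts and carries no length correction, and levels are compared here only within a gene.

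The libraries held 6699383 to 10762360 reads (median 8731333). All 12 corneal epithelium markers, *Krt12* and *Pax6* among them, had reads in all 20 libraries. Markers of stromal keratocytes, the cells beneath the epithelium, were lower with age: 3, 4 and 6 of 12 tested were called lower at 12, 18 and 24 months. Of all tested genes 0.532%, 0.673% and 0.78% were called at these ages, in either direction. The summed level of the 14 listed markers was 1984 to 5230 normalized counts in the young libraries against 625.3 to 1478 in the 24-month libraries. Of 7 tested conjunctiva and goblet cell markers 2, 2 and 1 were called lower at 12, 18 and 24 months. The 1 at 24 months was the keratin *Krt4*, at 3170 to 5337 in young and 1223 to 1882 in 24-month libraries. Of the 7, 0, 3 and 3 had a positive difference at 12, 18 and 24 months. The medians were -0.78, -0.19 and -0.12 on the log2 scale. Of 9 tested immune cell markers 0 were called at any of these ages. Their median log2 differences were -0.4, -0.38 and -0.78, and 2, 2 and 1 of the 9 had a positive difference. The 14 listed immune markers summed to 1417 to 2241 normalized counts in young and 1016 to 1641 in 24-month libraries. In tissue of this kind fewer cells of a type and less RNA per cell cannot be told apart.

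*Lncppara* is a long non-coding RNA gene named for its neighbour *Ppara*. In RefSeq (GRCm38.p6) it lies on chromosome 15 from 85703773 to 85707524 on the plus strand, and *Ppara* begins 27386 bp further on the same chromosome. GENCODE M21 starts *Lncppara* further upstream, at 85653616, with 2 transcripts and the same end. The gene hosts 2 microRNA hairpins, *Mirlet7c-2* (85706603 to 85706697) and *Mirlet7b* (85707319 to 85707403), whose mature 5′ strands lie in its exons. Their sequences, credited to RefSeq, are shown because they are the known small RNA products of this locus. The capitals mark the seed, bases 2 to 8, which the pair share.
mmu-let-7c-5p: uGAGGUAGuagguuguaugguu
mmu-let-7b-5p: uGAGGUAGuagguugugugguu
The 5′ strands differ at 1 of 22 positions, counted from the 5′ end (A17G from let-7c to let-7b). Mature microRNAs have no poly(A) tail and were not measured by these libraries, and both hairpin genes were listed at 0 reads in all 20 libraries.

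The promoters of *Lncppara*, *Ppara*, *Acsm1* and *Plin2* are shown from 250 bases before to 50 bases after a reference start site (GRCm38.p6). Among those shown, only the *Lncppara* site is the RefSeq gene start. The *Ppara* window lies wholly beyond the RefSeq gene start at 85734910. Distances from the start below are counted from the site of each window. The first 3 are shown because they set the genes that rose beside the receptor gene. *Plin2* is shown because it was the member with a close match to the PPAR element. Capitals mark stretches that match the nuclear receptor hexamer AGGTCA exactly, or its direct repeat AGGTCANAGGTCA with at most 2 mismatches, on either strand. The stretch in *Plin2* is a repeat whose 13 letters, 2 mismatched ones included, are all in capitals, and an exact hexamer lies within it.
Lncppara, chr15:85703523-85703822, plus strand: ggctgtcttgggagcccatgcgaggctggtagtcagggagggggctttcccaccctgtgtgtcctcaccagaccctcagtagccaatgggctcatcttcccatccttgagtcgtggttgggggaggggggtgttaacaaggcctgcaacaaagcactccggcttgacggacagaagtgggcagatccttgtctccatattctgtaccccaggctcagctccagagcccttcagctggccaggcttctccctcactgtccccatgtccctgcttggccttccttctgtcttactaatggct
Ppara, chr15:85735526-85735825, plus strand: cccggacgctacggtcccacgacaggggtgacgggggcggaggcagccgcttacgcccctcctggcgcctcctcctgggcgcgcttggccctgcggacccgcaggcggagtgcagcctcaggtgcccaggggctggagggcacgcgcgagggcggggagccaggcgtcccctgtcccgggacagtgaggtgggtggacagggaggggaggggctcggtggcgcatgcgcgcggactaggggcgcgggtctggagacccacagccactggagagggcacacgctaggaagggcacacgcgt
Acsm1, chr7:119617562-119617861, plus strand: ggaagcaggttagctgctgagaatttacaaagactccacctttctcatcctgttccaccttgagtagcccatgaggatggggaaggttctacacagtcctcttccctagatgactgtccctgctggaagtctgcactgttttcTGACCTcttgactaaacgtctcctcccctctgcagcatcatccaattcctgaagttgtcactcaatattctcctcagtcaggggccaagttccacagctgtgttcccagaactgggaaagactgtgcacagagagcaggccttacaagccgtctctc
Plin2, chr4:86670010-86670309, minus strand: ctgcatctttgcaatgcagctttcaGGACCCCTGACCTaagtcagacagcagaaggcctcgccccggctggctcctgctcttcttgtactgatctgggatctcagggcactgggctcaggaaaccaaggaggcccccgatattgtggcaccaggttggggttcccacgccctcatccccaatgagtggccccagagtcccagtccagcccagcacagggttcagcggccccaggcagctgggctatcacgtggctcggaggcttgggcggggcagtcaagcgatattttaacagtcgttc
No exact hexamer was found in the windows of *Lncppara*, *Ppara* or *Pdk4*. There was 1 on the reverse strand in each of *Acsm1* (starting 107 bases before the start), *Cpt1a* (94 bases before), *Plin2* (218 bases before) and *Acadm* (249 bases before). An exact hexamer was present in 16.3% of all 32851 promoters of this length, so 4 of 7 members is a description and no more. A direct repeat with at most 2 mismatches was found in the *Plin2* window alone among the 7 members with a promoter (225 bases before the start), and in 3.9% of all promoters. The *Ppara* window was rich in CG dinucleotides, with 30 against a median of 7 over all promoters, while *Lncppara* had 4 and *Acsm1* had 2. No promoter of *Angptl4* or *Fabp5* was used here.

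*Lncppara* was near the limit of detection in most young corneas and present in every aged cornea. Its normalized counts in the 5 young libraries were 41.65, 14.99, 1.826, 1.06 and 1.897, from 38, 20, 2, 1 and 2 reads. The 12-month libraries held 30.33, 88.13, 25.71, 42.09 and 68.81, the 18-month libraries 73.18, 58.64, 47.64, 59.13 and 47.38, and the 24-month libraries 51.68, 59.36, 21.76, 68.75 and 43.29. The young group was therefore split: 3 libraries stood at 2 reads or fewer, and young replicate 1 lay inside the range of the 12- and 24-month groups, so that only the 18-month group did not overlap with young. By chi-square on reads, to which abundant genes add most, young replicate 1 was the young library least like the others. Its 10 most abundant genes held 34.9% of its reads, against 25.767% to 29.737% in the other young libraries. Chi-square per degree of freedom of its reads against theirs was 47.173 to 99.948, and 15.176 to 37.422 among the other young libraries. Whether this bears on its *Lncppara* value was not tested.

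The mean of *Lncppara* was 12.29 ± 17.4 normalized counts in young (SD, n = 5), 51.02 ± 26.7 in the 12-month, 57.19 ± 10.6 in the 18-month and 48.97 ± 17.9 in the 24-month group. The differences from young on the log2(normalized count + 1) scale were 2.85, 3.15 and 2.85. Since the young values are so low, the size depends on the scale: the ratio of the aged to the young mean was 4.26, against 7.72-fold from the log2 values. Without young replicate 1 the 24-month difference was 3.53, and with a pseudocount of 10 it was 1.63. Among the aged groups the order was 18-month, 12-month, 24-month, and their ranges overlapped: the 24-month mean differed from the 12-month mean by 0.00 and from the 18-month mean by -0.30 on the log2 scale.

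*Acsm1* encodes a mitochondrial medium-chain acyl-CoA synthetase, an enzyme that joins medium-chain fatty acids to coenzyme A so that they can be used. The gene lies on chromosome 7 from 119617757 to 119662515 (GRCm38.p6) within a cluster of its own family. Young libraries held 493.3, 603.3, 407.3, 448.2 and 556.8 normalized counts. The values were 690.3, 728.7, 715.7, 874.8 and 1114 at 12 months, then 895.2, 979.4, 616.1, 772.2 and 663.4 at 18 months, and 869.8, 779, 695.3, 937.2 and 575.1 at 24 months. Every 12-month and 18-month library was above every young library, and 24-month replicate 5 was the only aged library below the highest young one.

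The *Acsm1* means were 501.8 ± 79.4 in young (SD, n = 5), 824.7 ± 177 in the 12-month, 785.3 ± 153 in the 18-month and 771.3 ± 143 in the 24-month group. From the mean log2 values the aged groups were 1.63-fold, 1.56-fold and 1.53-fold above young. For comparison, 0.921% of the 11288 tested genes lay wholly above young at 12 months, 1.04% at 18 months and 1.26% at 24 months; nothing is read from this for *Acsm1*, which was chosen for its rise. Between the aged groups *Acsm1* moved by -0.09 to -0.02 on the log2 scale. As with *Lncppara*, the higher level was in place by 12 months.

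Of the other family members 1 passed the filter on low values. *Acsm2*, its neighbour on chromosome 7, had means of 21.06 ± 9.61 normalized counts in young, 7.735 ± 7.11, 27.34 ± 15.8 and 17.73 ± 9.84 in the 12-, 18- and 24-month groups, with no age difference past the test (adjusted p = 0.343 over the 4 ages). *Acsm5* had 72 reads in all and *Acsm3* and *Acsm4* were listed at 0 in all 20 libraries. RefSeq places the non-coding genes *Gm39079* and *Gm19950* across parts of *Acsm1*, and whether the counting used strand is not given in the sources used here.

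**Figure D1:**
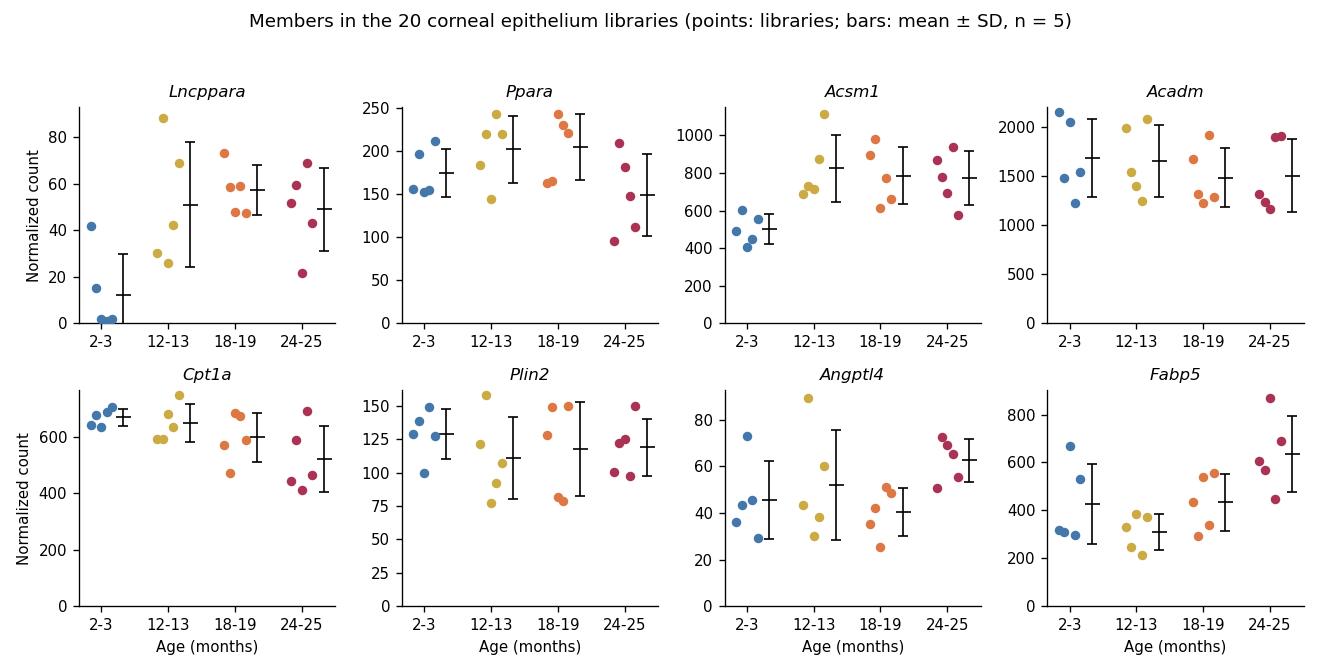
Normalized counts (linear axes from 0) of 8 members in each library by age in months, with the mean ± SD of 5 libraries as a black bar beside the points (the young *Lncppara* bar is cut at 0). *Lncppara* and *Acsm1* sit higher in the aged groups; *Ppara* does not, and *Fabp5* runs from a low at 12 months to a high at 24 months.

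*Ppara*, the receptor gene itself, did not differ between ages beyond the spread. It lies on chromosome 15 from 85734910 to 85806851. Its young libraries held 155.7, 196.4, 152.5, 154.7 and 211.5 normalized counts, the 12-month libraries 182.9, 219.7, 143.6, 242.5 and 219.2, the 18-month libraries 162.2, 165.4, 243, 230.2 and 220.5, and the 24-month libraries 95.56, 209, 180.7, 147.9 and 111.1. The lowest 2 of the 20 libraries were both 24-month, and the groups overlapped throughout.

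The 24-month against young difference of *Ppara* was -0.27 ± 0.214 on the log2 scale (SE; 95% interval -0.71 to 0.17; limma adjusted p = 0.726). The widest gap lay between 24 and 18 months, at -0.49 ± 0.214, with an unadjusted p of 0.0293 and an adjusted p of 0.919 in limma. Over the 4 ages the limma adjusted p was 0.533. So the mean of the non-coding neighbour was over 4 times as high in aged as in young libraries, while the interval for *Ppara* in the aged against young comparison ran from -0.34 to 0.44.

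The other genes around *Lncppara* gave no call. *Wnt7b*, a secreted signalling protein gene 121952 bp away on the other side, had an adjusted p of 0.869 over the 4 ages (limma), and *Cdpf1*, the gene after *Ppara*, one of 0.854. *AU022754* had 172 reads in all 20 libraries, *Pkdrej* had 2, and *7530416G11Rik* was listed at 0. *D130051D11Rik*, *Gm4825*, *Gm34622* and *Gm46529* were not analysed here.

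Among the 6 members open to a test, none was called in any of the 7 comparisons or over the 4 ages at an adjusted p of 0.05 or less and at least 1.2-fold. The share of all 11288 tested genes called was 0.532% for 12-month, 0.673% for 18-month and 0.78% for 24-month against young, and 1.01% for aged against young. Between aged groups it was 0.00886% (18-month against 12-month), 0.195% (24-month against 12-month) and 0.0% (24-month against 18-month, where 599 genes had an unadjusted p under 0.05 in limma). It was 0.904% over the 4 ages. The 0 of 6 is to be read against these shares.

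*Fabp5* came nearest to a call. It encodes the epidermal fatty acid binding protein, a carrier that moves fatty acids within the cell and can hand them to nuclear receptors, and lies on chromosome 3 from 10012585 to 10016610. Young libraries held 320.1, 310.3, 670.3, 295.6 and 532.2 normalized counts, 12-month libraries 329.1, 248.6, 385.7, 213.4 and 372.1, 18-month libraries 436.6, 294.4, 540.7, 338.6 and 556, and 24-month libraries 604.6, 567.6, 869.4, 446.4 and 690.8. Every 24-month library was above every 12-month library, as in 1.5% of the tested genes, whereas young spanned both.

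The 24-month mean of *Fabp5* was 635.7 ± 157 against 309.8 ± 75.9 at 12 months (SD, n = 5), a log2 difference of 1.04 ± 0.231 (SE), or 2.05-fold, with a limma adjusted p of 0.0501, just outside the threshold. Over 30 alternative settings that adjusted p ran from 0.00198 to 0.143 and was within 0.05 in 9 of them, so the call turns on the setting. Settings that changed the fold threshold alone are among the 30 and could not move the adjusted p of *Fabp5*. Without 12-month replicate 2 that adjusted p was 0.143, and without young replicate 1 it was 0.0248. Against young the 24-month difference was 0.63 ± 0.231 (limma adjusted p = 0.302). The only other tested gene of its family, *Fabp6*, was at 174.4 in young and 178.9 at 24 months (limma adjusted p = 0.943).

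*Cpt1a* and *Acadm* stand for the entry into and an early step of mitochondrial fatty acid burning. *Cpt1a*, on chromosome 19 from 3322326 to 3385735, encodes the carnitine transferase that lets long-chain fatty acids into mitochondria. It held 642.4, 679.7, 636.5, 688.7 and 706.7 normalized counts in young and 442.7, 591.1, 412.4, 693.6 and 466.8 at 24 months, so 4 of 5 of the oldest libraries were below every young one. Its means descended with age, from 670.8 ± 30.3 in young to 650 ± 66.3, 599.1 ± 86 and 521.3 ± 118 (SD, n = 5). The 24-month difference from young was -0.39 ± 0.139 (SE; 95% interval -0.68 to -0.10), with an unadjusted p of 0.00935 and an adjusted p of 0.271 in limma, which does not pass over all genes.

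*Acadm*, the medium-chain acyl-CoA dehydrogenase on chromosome 3 from 153922353 to 153944643, ranged from 1163 to 2152 normalized counts over the 20 libraries with the 4 ages overlapping. Its 24-month difference from young was -0.17 ± 0.176 (SE; 95% interval -0.53 to 0.19; limma adjusted p = 0.806). Its relatives *Acadvl*, which acts on very long chains, and *Acadl* had 24-month differences of -0.42 (adjusted p = 0.389) and -0.25 (adjusted p = 0.413), and *Acad9* one of 0.44 (adjusted p = 0.414), all from limma. *Cpt2*, the partner of *Cpt1a* inside the mitochondrion, was at 93.64 in young and 93.82 at 24 months.

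*Plin2* and *Angptl4* are classical PPAR targets for the storage and supply of fat. *Plin2* coats lipid droplets and lies on chromosome 4 from 86626910 to 86670217. It ranged from 99.54 to 149.4 normalized counts in young and from 97.46 to 149.6 at 24 months, almost the same span, and the 24-month difference was -0.12 ± 0.238 (SE; 95% interval -0.61 to 0.37; limma adjusted p = 0.919). *Angptl4*, a secreted inhibitor of lipoprotein lipase on chromosome 17 from 33774900 to 33781575, held 36.17, 43.47, 73.06, 45.56 and 29.41 in young and 50.71, 72.37, 69.06, 65.27 and 55.53 at 24 months. The oldest libraries lay inside the young range in all 5 cases, the difference was 0.50 ± 0.331 (SE), and the limma adjusted p was 0.651.

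*Pdk4*, a kinase that turns off pyruvate dehydrogenase when fat is burned and a well known PPAR alpha target, was listed at 0 in all 20 libraries. A floor of 3 reads corresponds to 2.248 to 3.946 normalized counts per library, so no fold or test was possible. Whether the gene was not expressed or its reads were lost in the counting could not be told from these files, and the same holds for the other genes listed at 0. The gene lies on chromosome 6 from 5483351 to 5496278. Its relatives *Pdk1*, *Pdk2* and *Pdk3* were measured: *Pdk1* was at 386.2 ± 93.7 in young and 497.5 ± 70 at 24 months (SD, n = 5; limma adjusted p = 0.447), and *Pdk3* and *Pdk2* had limma adjusted p of 0.8 and 0.989 in that comparison. Several other targets were also at or near 0 reads, among them *Fabp3* and *Plin4* at 0 and *Cpt1b* with 8 reads over the 20 libraries.

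**Figure D2:**
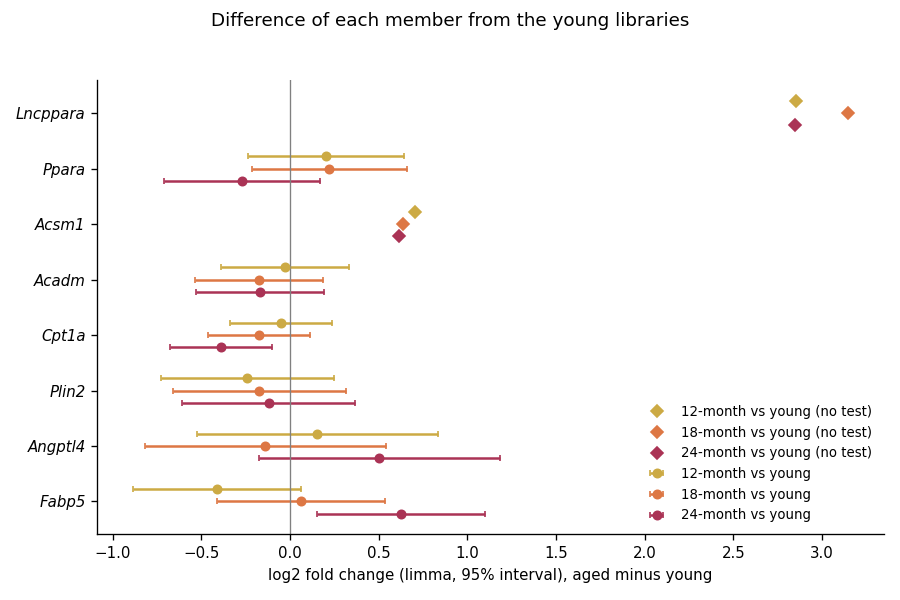
log2 fold changes of 8 members from young at 12, 18 and 24 months (limma). Circles carry 95% intervals; the diamonds of *Lncppara* and *Acsm1* have none because these genes were chosen for their rise. The intervals of *Cpt1a* and *Fabp5* at 24 months lie off 0, on opposite sides, but neither passes after adjustment.

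The wider pathway was described with 9 lists holding 192 genes, *Lncppara* not among them. With *Acsm1* left out, 130 of these genes were tested. In each age against young 1 of the 130 was called (0.769%), upward, and it was *Vldlr* each time. The share over all tested genes was 0.532%, 0.673% and 0.78% at 12, 18 and 24 months, so the count of calls for the lists is near the background. An unadjusted limma p under 0.05 was reached by 16.2%, 6.15% and 14.6% of the 130 at these ages. It was reached by 9.56%, 7.18% and 9.97% of all tested genes, and the gap was not tested. The median log2 difference of the 130 from young was 0.00, -0.01 and -0.01 at 12, 18 and 24 months, against -0.01, 0.00 and 0.01 for all tested genes.

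*Vldlr*, the very low density lipoprotein receptor, takes up fat-laden lipoproteins and is itself a known PPAR target. Its young libraries held 83.31, 101.9, 58.45, 45.56 and 39.84 normalized counts. The 12-month libraries held 218.8, 198.6, 170.4, 71.15 and 158, the 18-month libraries 172, 268.6, 150.1, 179.2 and 118, and the 24-month libraries 199.9, 145.5, 184.5, 159.2 and 111.1. All 18- and 24-month libraries and 4 of 5 12-month libraries were above every young library, and 1.04% of the tested genes lay wholly above young at 18 months and 1.26% at 24 months.

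*Vldlr* rose 2.45-fold at 12 months (limma adjusted p = 0.0346), 2.74-fold at 18 months (adjusted p = 0.00833) and 2.51-fold at 24 months (adjusted p = 0.0208). The rise at 18 months stayed within the threshold in all 30 alternative settings. The rise at 24 months did so in 24 and the rise at 12 months in 20 of 30, with the log2 difference between 1.14 and 1.57 throughout at 12 months. The 30 include settings that changed the fold threshold alone, which leave the adjusted p as in the main fit. The 24-month call ended with voom and without young replicate 4 or 5 or 24-month replicate 1, 3 or 4 (adjusted p of 0.0568 to 0.079). The 12-month call ended with no filter, with voom, with the 2 groups alone, and without young replicate 3, 4 or 5 or 12-month replicate 1, 2, 3 or 5 (adjusted p of 0.06 to 0.176).

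The lists by role gave the following. Of 14 tested receptors, partners and coregulators none was called at 24 months, and the corepressor *Ncor1* had the smallest p over the 4 ages (unadjusted 0.0709), at 2621 ± 318 in young and 2267 ± 274 at 24 months. *Ppard*, the PPAR of skin and other epithelia, had reads in all 20 libraries, while *Pparg*, the PPAR of fat cells, had 5 reads in all. Of the 28 tested genes of the PPAR alpha target list, which does not hold *Vldlr* (it stands in the uptake list), none was called at 24 months. *Vnn1*, a pantetheinase and liver PPAR alpha target, was above every young library in all 5 12-month libraries (153.7 ± 42.5 against 86.91 ± 13.9), as were 0.921% of the tested genes, with a limma adjusted p of 0.103. *Hadha*, a subunit of the mitochondrial trifunctional protein, was at 831.1 ± 111 in young and 655.2 ± 138 at 24 months (limma adjusted p = 0.371).

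Of 22 tested genes of mitochondrial beta-oxidation and 15 of peroxisomal beta-oxidation none was called at 24 months. The mitochondrial list had 8 members above 0 and a median of -0.09 there. Its *Hadhb*, the other trifunctional subunit, was lowest at 12 months (102.9 ± 47.8 against 205.2 ± 83.5 in young; limma adjusted p = 0.244). The peroxisomal *Amacr*, a racemase of branched fatty acids, averaged 10.56 in young and 23.23 at 24 months, with a limma adjusted p of 0.674.

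Of 13 tested acyl-CoA synthetases other than *Acsm1* none was called. *Acss1*, the mitochondrial acetyl-CoA synthetase, came close at 24 months, at 123.6 ± 22.4 against 60.86 ± 26.3 in young, a log2 difference of 1.08 and a limma adjusted p of 0.0699. Its libraries in young were 43.85, 66.7, 104.1, 49.8 and 39.84 and at 24 months 110.2, 129.3, 95.54, 154.9 and 128, so 1 young library lay inside the older range. *Mgll*, which splits monoacylglycerols, was the nearest of 19 lipid droplet and lipolysis genes, at 1221 ± 140 in young and 893.6 ± 79 at 24 months (log2 difference -0.45; limma adjusted p = 0.0662), while *Gpam*, the first enzyme of glycerolipid synthesis, was at 81.54 and 92.17.

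No gene was called at 24 months among 13 of pyruvate entry and 16 of fatty acid synthesis. *Dld* and *Pdhb*, subunits of the pyruvate dehydrogenase complex, had log2 differences of -0.18 and -0.30 at 24 months (limma adjusted p = 0.789 and 0.653). *Scd1*, the desaturase that makes monounsaturated fat, was lowest at 12 months, at 229 ± 91.6 against 332 ± 36.6 in young (limma adjusted p = 0.314). *Hacd3*, of fatty acid elongation, was highest there, at 343.5 ± 35.8 against 266.5 ± 27.2 (limma adjusted p = 0.491).

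**Figure D3:**
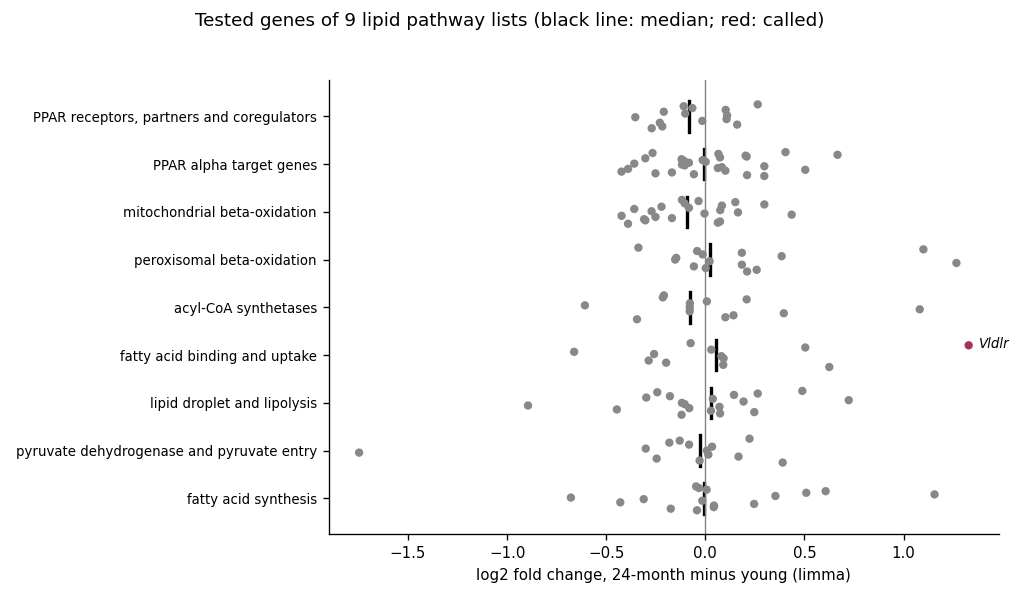
log2 fold change from young to 24 months of each tested gene in the 9 pathway lists, *Acsm1* left out. The list medians (black lines) lie close to 0, from -0.09 to 0.06, and *Vldlr* in red is the only gene called.

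**Figure D4:**
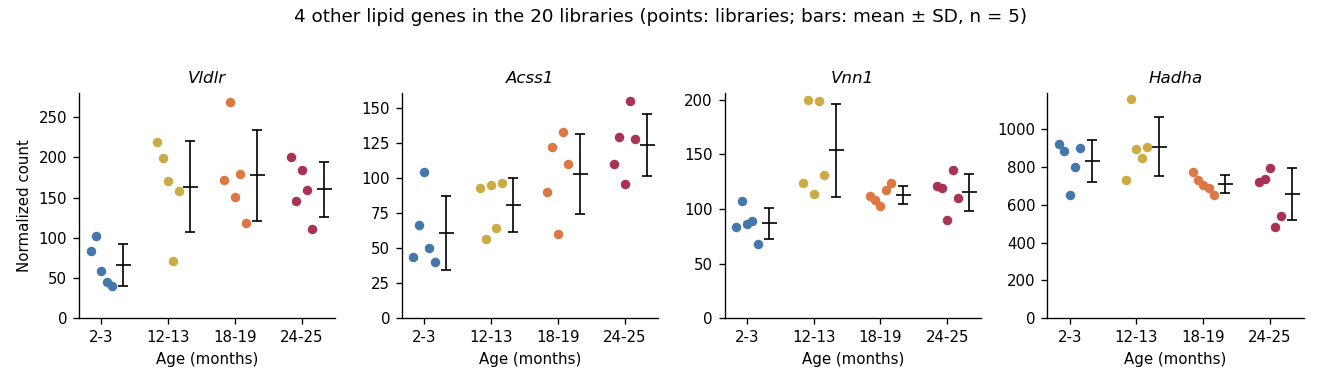
Normalized counts (linear axes from 0) of *Vldlr*, *Acss1*, *Vnn1* and *Hadha* in each library by age in months, with the mean ± SD of 5 libraries. The 24-month libraries of *Vldlr* (111.1 to 199.9) lie above all young ones (39.84 to 101.9), and those of the other 3 overlap with young.

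Within an age, libraries high in *Lncppara* were not reliably high in any other member. Deviations from the age means were compared over the 20 libraries for 7 pairs, *Pdk4* being at 0, with 100000 permutations within ages (two-sided) and Benjamini-Hochberg adjustment over the 7. With *Acsm1*, Pearson's r was 0.372 (permutation p = 0.096, adjusted 0.381) and Spearman's rho 0.511 (permutation p = 0.0206, adjusted 0.144), and r was 0.491 without young replicates 1 and 4, the libraries farthest from the median. With *Ppara*, r was 0.034 and rho 0.012 (permutation p = 0.868 and 0.961). With *Fabp5* the sign was negative, r = -0.471 and rho = -0.493 (permutation p = 0.111 and 0.0638, adjusted 0.381 and 0.199), and -0.699 without the same pair of libraries. For *Cpt1a*, *Plin2*, *Angptl4* and *Acadm* r was 0.106, 0.145, 0.076 and 0.374, with adjusted permutation p of 0.381 or more.

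Over the 20 libraries with age left in, the genes most like *Lncppara* among 11287 others included *Cyp4a12a* (Pearson's r = 0.796), a fatty acid hydroxylase, *Vldlr* (0.792), *Vit* (0.79), a matrix protein gene, and *Wfdc2* (0.785), a secreted protease inhibitor gene. By Pearson's r *Acsm1* ranked 19th, with r = 0.745, and *Ppara* 3875th, with r = 0.089. The order depends on the measure, as 3 young libraries stood at 2 *Lncppara* reads or fewer. Spearman's rho was 0.711 for *Cyp4a12a*, 0.55 for *Vldlr*, 0.453 for *Vit* and 0.701 for *Wfdc2*. It was 0.771 for *Acsm1* and 0.221 for *Ppara*. *Lncppara* and *Acsm1* were both chosen for their rise with age, so a high r between them follows in part from the choice. With the age means removed, r was 0.585 for *Cyp4a12a*, 0.43 for *Vldlr*, 0.431 for *Vit*, 0.493 for *Wfdc2* and 0.372 for *Acsm1*. *Cyp4a12a* has a close copy, *Cyp4a12b*, and reads could have been split between them, so its level is uncertain. These correlations describe libraries that share ages and sequencing, and no test was made on them.

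For *Acsm1* the most alike genes were *Fmo2* (r = 0.815), a flavin monooxygenase, *Plce1* (0.788), a phospholipase C, *Chst10* (0.785), a sulfotransferase, *Chrm3* (0.778), a muscarinic receptor, and *Gstm5* (0.775), a glutathione transferase. *Lncppara*, likewise chosen for its rise, ranked 9th for *Acsm1* by Pearson's r. Its Spearman's rho with *Acsm1* was 0.771, against 0.567 (*Gstm5*) to 0.777 (*Fmo2*) for the 5 genes above. *Fmo2* was at 136 ± 51.3 in young and 325.7 ± 81.5 at 24 months (SD, n = 5), and *Cyp4a12a* at 332.4 ± 123 and 532.6 ± 79.5. The highest r of any other member with either gene was 0.136, of *Angptl4* with *Lncppara*.

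The fall of keratocyte markers moved with age beside the higher *Lncppara*, *Acsm1* and *Vldlr*. The summed keratocyte level was 4290, 5230, 4789, 1984 and 3838 in the young libraries, and young replicate 1, the one with the high *Lncppara*, stood at 4290, inside the young range. Of 15 markers of adipocytes and lipid-secreting gland cells 7 were at 0 in all libraries, *Adipoq* and *Plin1* among them, and the summed level was 11.66 to 51.14 in young and 8.514 to 31.06 at 24 months. The circadian clock list summed to 12824 to 15304 in young, 15800 to 18086 at 12 months, 15131 to 15917 at 18 months and 13147 to 15049 at 24 months. Of its 18 tested genes 0 were called by limma against young. At 12, 18 and 24 months 7, 3 and 5 of the 18 had an unadjusted limma p under 0.05. That held for 9.56%, 7.18% and 9.97% of all tested genes. The median log2 differences of the clock list were 0.3, 0.28 and 0.18. The hour of collection was not given in the labels. The part of these in the members' values was not tested.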

How the data were processed

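RNA of corneal epithelium from 20 female mice was sequenced as 3′-end single reads. According to the study's methods and the processing notes, the authors trimmed reads with cutadapt, checked them with FastQC, aligned them with STAR to GRCm38, obtained counts from HTSeq, scaled by DESeq2 relative log expression (versions not given in the sources used here). The deposited values are log2(normalized count + 1), as 4 tables whose shared values did not differ. Columns with the authors' fold changes and p-values were not used. The authors' mean column served only as a check against the mean over the libraries. It differed for 393 of 24552 genes in the 20-library table and for 0 in the pairwise ones, and the reason was not examined. Because each sample's low values were whole multiples of 1 read (100% of values within 0.01), reads and size factors (0.7603 to 1.3343) were recovered.

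The members and lists were chosen with earlier results of these data known. Named genes were the members, the called or lowest-p genes of each pathway list, family members, neighbours of *Lncppara* within 5 genes a side, and the 5 genes most like *Lncppara* and *Acsm1*; cell type and clock genes stand only beside a result they move with, and those with few reads (*Pparg*, *Cpt1b*, *Fabp3*, *Plin4*) were named after their values were seen. Some genes that the rule names are not reported here. limma 3.58.1 (R 4.3.3) with a variance trend was fitted to the log2 values of all 20 libraries for the 11288 genes averaging 10 or more normalized counts; Benjamini-Hochberg adjustment ran over all of them, and a call needed an adjusted p within 0.05 together with a 1.2-fold difference. A count model was not the main test because the files hold no raw counts; voom on recovered reads was an alternative. The fit was tested on simulated data with known changes. Other alternatives were quantile normalization, the filter, the pseudocount, the fold threshold, fitting 2 groups only, a replicate block and leaving out each library. The labels name separate mice, so the spread is between animals. Over all tested genes, same-numbered libraries of different ages deviated together no more than others (median r = 0.0077 over 30 pairs against 0.0035 over 120 others). This median cannot show whether libraries of 1 number go together for single genes. Python 3.11.15, numpy 2.4.6, pandas 2.3.3 and scipy 1.17.1 were used for the rest. Intervals and floors cover counting or library spread as stated.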

Additional observations from a re-analysis of the deposited data

Results flagged for a closer look

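Dixon's gap test (critical value 0.71 for 5 libraries) was run on 176 groups; chance flags about 1 in 20. No group of a member was flagged. *Ncor1* was high in 18-month replicate 1 (2705 normalized counts, the other 4 at 2534 to 2577) and low in 24-month replicate 5 (1794, the others at 2271 to 2456). *Gpam* was high in 18-month replicate 2 (107.9 against 37.71 to 55.58), as was the *Ppara* neighbour *Cdpf1* (80.93 against 28.04 to 41.21). *Dld* was high in 24-month replicate 3 (290.4 against 222.8 to 242.3). *Cpt2* was high in young replicate 5 (162.2 against 69.93 to 88.43) and in 12-month replicate 4 (166.4 against 47.15 to 80.36).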

How the results depend on the processing

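*Lncppara* and *Acsm1* were higher than young at each age under every alternative run (*Lncppara* was not fitted with the filter at 50 counts). Both were chosen for their rise in these libraries, so this is a description and no support for it. *Vldlr* was also higher than young at each age under every alternative. The tested members kept their side of the threshold except *Fabp5*. *Fabp5* at 24 against 12 months had an adjusted p of 0.0437 with genes of at least 50 normalized counts, 0.045 with a pseudocount of 10 and 0.0442 with the 2 groups alone. The number of genes called, 60, 76, 88 and 114 for 12-month, 18-month, 24-month and all aged against young, ran from 38 to 96, 61 to 81, 54 to 96 and 84 to 130 when 1 library was left out. The 1 gene of 18-month against 12-month ran from 0 to 3 and was 0 by quantile normalization, with no filter, with at least 50 counts, with a pseudocount of 10, by voom and with 2 groups. The 22 of 24-month against 12-month ran from 0 to 84, and were 0 with no filter, 35 with at least 50 counts and 11 with 2 groups. The 0 of 24-month against 18-month stayed 0, and the 102 over the 4 ages ran from 59 to 114. At 12 months 38 were called by voom and 39 with 2 groups. With the replicate number as a block, 57, 72 and 85 genes were called at 12, 18 and 24 months against young. At 18 against 12 months 0 were called, and at 24 against 12 months 11. With this block *Fabp5* passed at 24 months against 12 months (limma adjusted p = 0.00198) and against young (0.0314). *Fabp5* was highest in replicate 3 of the young, 12-month and 24-month libraries (670.3, 385.7 and 869.4 normalized counts). It was lowest in replicate 4 of the same groups (295.6, 213.4 and 446.4). At 18 months replicate 5 was highest (556) and replicate 2 lowest (294.4). The causes were not tested. At 1 to 2 reads in 3 young libraries, depth limits the fold change of *Lncppara*.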
